A study of Homo sapiens with 10 samples.

Results

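ETV5 and 9 other genes that the ERK pathway is known to switch on or to be restrained by were followed in poly(A)+ RNA of cells labelled HEK293, an immortal human line that came from embryonic kidney. The 10 genes are the ETS factors ETV5, ETV4 and ETV1, the Sprouty genes SPRY1, SPRY2 and SPRY4, the Spred genes SPRED1 and SPRED2, and the phosphatase genes DUSP4 and DUSP6. They were taken by gene symbol from a table of 30809 assembled genes, and each symbol named 1 locus. They were chosen by their group mean FPKM values in these same 5 groups, so the levels below describe the genes and are not a test of them.

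The study sequenced 10 libraries, 2 in each of 5 groups. Control cells and cells depleted of both PAPOLA and PAPOLG, the genes of the poly(A) polymerases PAPα and PAPγ, with siRNAs for 3 days (siPAP) each gave a total and a nuclear fraction. The fifth group was nuclear RNA of cells with an integrated PABPN1 gene carrying L119A and L136A (LALA), a dominant-negative form of the nuclear poly(A)-binding protein under a tetracycline-responsive promoter, from which doxycycline was withdrawn 3 days before harvest. The question behind the comparisons is which polyadenylated RNAs accumulate when poly(A) tail extension in the nucleus is blocked. Nuclear RNA here means what stayed insoluble in detergent, so RNA free in the nucleoplasm may be missed. The LALA cells are a stable line, and its effects, those of the drug change and those of LALA cannot be told apart. Both nuclear treatment comparisons use the same control nuclear libraries.

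ERK is the last kinase of the RAS, RAF and MEK cascade that growth factor receptors turn on. ERK activity raises transcription of ETV5, ETV4 and ETV1, in part by relieving repression by Capicua, and also of genes whose products damp the cascade: Sprouty and Spred proteins act upstream at RAS and RAF, while DUSP6 removes phosphate from ERK itself. These RNAs are widely used as a readout of ERK output, since many of them are made on demand and do not last long.

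Levels are FPKM, the fragments of a gene per kilobase of exon scaled to the mapped fragments of the library, as the mean of the 2 libraries of a group. The table gives no value of a single library, so no value below has an SD, and no difference has a p-value. A gene was counted as higher or lower where the 2 group means were at least 1.5-fold apart, with at least 1 FPKM in the higher one and a value above 0 in both. The number of reads per library is unknown, so no counting interval can be given. The study calls the libraries of a group biological replicates, and the labels do not say whether they came from separate cultures. In bulk RNA, fewer cells that express a gene and less of its RNA per cell cannot be told apart.

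The labels were checked first. PAPOLA was at 79.3 FPKM in control total and 11.0 FPKM in siPAP total RNA, and at 61.7 and 11.2 FPKM in the nuclear fractions. PAPOLG was at 12.2 and 3.64 FPKM in total RNA and at 10.6 and 4.46 FPKM in nuclear RNA. The locus that merges BCL2L2 and PABPN1 was at 89.1 FPKM in control nuclear and 162 FPKM in LALA nuclear RNA. Of the markers of the line, KRT8, KRT18 and VIM lay between 164 and 352 FPKM and INA between 0.961 and 1.46 FPKM, while PAX2 and NEFM stayed at or below 0.477 FPKM. The neurofilament gene NEFL was lower after PAP depletion, at 19.3 and 11.3 FPKM in control and siPAP total RNA and at 15.7 and 9.25 FPKM in the nuclear fractions, and INA was higher with LALA (0.961 and 1.45 FPKM in control and LALA nuclear RNA). The part of these differences in the results below was not tested. Of 7 markers of other cells, 6 stayed at or below 0.0896 FPKM in every group and the fibroblast collagen COL1A1 lay between 1.51 and 1.94 FPKM. The nuclear fractions had less RPL30 than total RNA (1094 against 1568 FPKM in control cells) and slightly more MALAT1 (25.4 against 20.4 FPKM), but NEAT1, also a nuclear RNA, was not enriched (54.7 against 65.7 FPKM). The paper states that MALAT1 lacks a poly(A) tail, so its level in poly(A)+ RNA is a weak measure of nuclear enrichment. Between 12714 and 13715 genes reached 1 FPKM in a group.

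The genes differ in build as well as in role. On hg19, ETV5 is assembled on chromosome 3 from 185764106 to 185826901, and its canonical transcript, on the minus strand, has 13 exons. ETV1 (chromosome 7, 13930856 to 14031050) and ETV4 (chromosome 17) have 14 and 13 exons. The Sprouty genes are compact. Their whole coding sequence lies in 1 exon, and SPRY4 (chromosome 5, 141689992 to 141704620) and SPRY2 (chromosome 13, 80910112 to 80915244) have 2 exons and SPRY1 (chromosome 4, 124317864 to 124328080) has 3. DUSP6 (chromosome 12, 89741837 to 89746296) has 3 exons and DUSP4 has 4. SPRED1 (chromosome 15, 38544210 to 38650352) and SPRED2 (chromosome 2, 65535471 to 65659890) have 7 and 6 exons, and their canonical transcripts in GENCODE extend over 104414 and 121749 bases of genome.

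The start regions of ETV1, SPRY4 and DUSP6 are shown because these 3 genes lay below 0.5 FPKM in both control groups, had higher group means in every treated group, and have a promoter in the RefSeq set used here. The start regions searched were those of 16 annotated starts of 7 of the 10 genes (build GRCh38.p14). ETV5, ETV4 and DUSP4 were not searched, so the matches below say nothing about these 3 genes. Each run covers 250 bases before and 50 bases from the annotated start, reads 5′ to 3′ on the gene's own strand, and has its first transcribed base as a lone capital. The other capitals in ETV1 mark TGAATGGA, an octamer bound by Capicua. ETV1 has several annotated starts, and the one shown was picked because it held this match.
ETV1 (chr7:13991376-13991675, minus strand): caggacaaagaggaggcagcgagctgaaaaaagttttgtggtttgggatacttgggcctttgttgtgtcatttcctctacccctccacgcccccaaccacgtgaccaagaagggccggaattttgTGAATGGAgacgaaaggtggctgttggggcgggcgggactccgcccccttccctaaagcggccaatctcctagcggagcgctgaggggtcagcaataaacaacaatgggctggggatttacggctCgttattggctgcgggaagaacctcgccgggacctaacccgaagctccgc
SPRY4 (chr5:142324198-142324497, minus strand): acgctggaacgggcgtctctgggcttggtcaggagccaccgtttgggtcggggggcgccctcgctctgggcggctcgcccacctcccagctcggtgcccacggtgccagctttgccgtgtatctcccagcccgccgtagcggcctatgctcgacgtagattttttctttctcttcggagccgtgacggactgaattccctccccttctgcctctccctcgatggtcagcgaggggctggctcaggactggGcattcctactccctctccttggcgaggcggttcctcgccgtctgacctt
DUSP6 (chr12:89352452-89352751, minus strand): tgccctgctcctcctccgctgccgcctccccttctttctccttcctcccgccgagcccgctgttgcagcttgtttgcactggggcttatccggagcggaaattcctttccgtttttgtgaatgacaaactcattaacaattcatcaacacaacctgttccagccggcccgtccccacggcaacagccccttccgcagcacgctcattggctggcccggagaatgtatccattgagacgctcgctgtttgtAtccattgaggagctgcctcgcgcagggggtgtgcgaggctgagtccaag
The search covered both strands and used the Capicua octamers TGAATGAA and TGAATGGA, which share their first 6 letters, the ETS site CCGGAAGT and the AP-1 site TGACTCA. Over all 35116 promoters of the same length, 1.65% held TGAATGAA, 1.03% held TGAATGGA, 4.14% held the ETS site and 4.95% held the AP-1 site. In the 16 start regions, TGAATGGA began 125 bases before 1 of the 6 annotated starts of ETV1, and the AP-1 site began 6 bases before an internal start of SPRED2. No other match was found in these windows.

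ETV5, an ETS transcription factor whose RNA follows ERK activity in many tissues, was the one gene of the set counted as higher in all 3 treatment comparisons, and it passed the 1 FPKM filter by its treated values alone. SPRY4 and ETV1 were also at least 1.5-fold above control in all 3, but did not reach 1 FPKM in each. Of all genes measured, 9.55%, 11.3% and 11.5% were higher in the single comparisons. The share of all genes higher in all 3 is not given here, and both nuclear comparisons share their control. ETV5 stood at 0.661 FPKM in control total and 1.95 FPKM in siPAP total RNA. In nuclear RNA it stood at 0.569 FPKM in control, 1.57 FPKM in siPAP and 1.68 FPKM in LALA cells. Both control groups thus lay below 1 FPKM and the 3 treated groups above it. The ratios to control were 2.96 in total RNA, 2.77 in siPAP nuclear RNA and 2.95 in LALA nuclear RNA. Among named genes whose control level lay within 2-fold of that of ETV5, 4.87% of 1932 had a ratio at least as high in the total fraction after PAP depletion. In nuclear RNA the shares were 7.71% of 1906 after PAP depletion and 8.55% of 1907 with LALA. With unnamed loci included, the 3 shares were 6.13%, 9.43% and 12.2%. With a pseudocount of 1 FPKM the log2 ratios of ETV5 dropped from 1.56, 1.47 and 1.56 to 0.83, 0.71 and 0.77.

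ETV4 and ETV1, the other ETS factors of the same subgroup, stayed below 1 FPKM in every group. ETV4 was at 0.354 FPKM in control total and 0.848 FPKM in siPAP total RNA, and at 0.352, 0.693 and 0.512 FPKM in control, siPAP and LALA nuclear RNA. Its ratio to control was thus highest in siPAP total RNA (2.39) and lowest in LALA nuclear RNA (1.45), where 39.6% of named genes of like level lay at least as high. ETV1, in contrast, had its highest ratio with LALA. It was at 0.320 FPKM in control total, 0.486 FPKM in siPAP total, 0.271 FPKM in control nuclear, 0.409 FPKM in siPAP nuclear and 0.829 FPKM in LALA nuclear RNA. LALA nuclear RNA was 3.06-fold of control for ETV1 and siPAP nuclear RNA 1.51-fold. Among named genes of like level, 11.1% lay at least as high as ETV1 with LALA. After PAP depletion 28.0% did so in total and 29.9% in nuclear RNA. Neither gene could enter the counts, because neither reached 1 FPKM. The ETV4 locus is assembled over the same span as DHX8 (chromosome 17, 41561194 to 41623800), a helicase gene at 19.7 to 25.0 FPKM that was not higher in any treated group (ratios of 0.975, 0.864 and 0.841).

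SPRY4, a Sprouty gene that is nearly silent in control cells, had the highest ratios of the set. It stood at 0.269 FPKM in control total and 0.859 FPKM in siPAP total RNA, a ratio of 3.20. In nuclear RNA it stood at 0.161 FPKM in control, 1.00 FPKM in siPAP and 0.889 FPKM in LALA cells, ratios of 6.25 and 5.53. Every treated group was above both control groups. Of named genes of like level, 5.72% of 1854 had a ratio at least as high in siPAP total RNA, and in nuclear RNA 0.716% of 1677 did so after PAP depletion and 2.58% of 1704 with LALA. With unnamed loci included, these shares were 6.35%, 1.32% and 4.83%. With a pseudocount of 1 FPKM the log2 ratios of SPRY4 dropped from 1.68, 2.64 and 2.47 to 0.55, 0.79 and 0.70. SPRY4 passed the filter only in siPAP nuclear RNA and only by its treated value, which lay just above 1 FPKM.

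SPRY1 and SPRY2, the Sprouty genes that these cells express more highly, did not share this. SPRY2 lay between 8.40 and 9.51 FPKM in all 5 groups. SPRY1 was at 7.88 and 7.58 FPKM in control and siPAP total RNA, at 7.30 and 7.84 FPKM in control and siPAP nuclear RNA, and at 4.79 FPKM in LALA nuclear RNA. LALA nuclear RNA was the lone group with a low SPRY1 value, 0.656 of control and 0.611 of siPAP nuclear RNA. All measured genes had a median log2 ratio of -0.16 in LALA nuclear RNA against control, and SPRY1 relative to that median was at -0.45, which no longer reaches the 1.5-fold mark. Of named genes of like level, 4.23% of 4113 lay at least as low against control and 2.27% of 4314 against siPAP nuclear RNA.

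The Spred genes, which encode membrane-bound inhibitors of RAF activation related to Sprouty, were higher than control in every treated group, by less than ETV5 or SPRY4. SPRED2 was at 8.36 FPKM in control total and 13.3 FPKM in siPAP total RNA, a ratio of 1.59 that passed the mark. In nuclear RNA it was at 8.43 FPKM in control, 12.0 FPKM in siPAP and 10.7 FPKM in LALA cells, ratios of 1.42 and 1.27 that did not. SPRED2 was the most abundant gene of the set in each treated group, and at its level the ratios of other genes lay closer to 1. In siPAP total RNA 3.51% of 4301 named genes of like level had a ratio at least as high, and in nuclear RNA 6.17% of 4375 did so after PAP depletion and 6.49% with LALA. SPRED1, whose loss causes Legius syndrome, was at 3.05 and 4.41 FPKM in control and siPAP total RNA and at 2.83, 3.82 and 3.46 FPKM in control, siPAP and LALA nuclear RNA. Its ratios of 1.45, 1.35 and 1.22 stayed below the mark, in the same order as those of SPRED2.

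The phosphatases differed in level and in pattern. DUSP6, a cytoplasmic phosphatase specific to ERK, was below 0.5 FPKM in all groups, at 0.199 and 0.360 FPKM in control and siPAP total RNA and at 0.270, 0.473 and 0.375 FPKM in control, siPAP and LALA nuclear RNA. These are ratios of 1.81, 1.75 and 1.39, and the table marks 4 of the 10 pairs of groups as having enough alignments for DUSP6, so its values are the least secure of the set. Among named genes of like level, 21.5%, 23.7% and 44.5% had ratios at least as high as these. DUSP4 (chromosome 8, 29190579 to 29208267), a nuclear phosphatase of ERK and related kinases, lay between 3.77 and 4.65 FPKM, with its lowest value in siPAP nuclear and its highest in LALA nuclear RNA. An unannotated locus (chromosome 12, 89747844 to 89761110) begins 1548 bases from DUSP6, beyond its 5′ end. It was at 0.139 and 0.603 FPKM in control and siPAP total RNA and at 0.137, 0.647 and 0.677 FPKM in control, siPAP and LALA nuclear RNA, ratios of 4.33, 4.72 and 4.94. Its strand is not given in the table. No other member except ETV4 had a separate locus assembled within 5 kb.

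**Figure D1:**
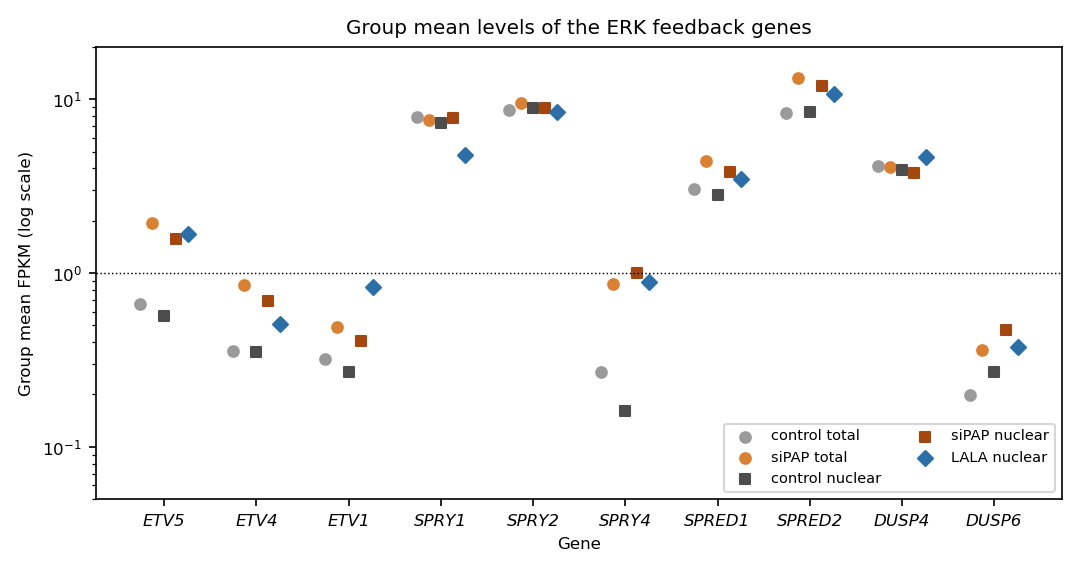
Group mean FPKM (log axis) of the 10 genes in the 5 groups, each point the authors' mean of 2 libraries with no error bar, and a dotted line at 1 FPKM. ETV5 lies below the line in both control groups (0.661 and 0.569 FPKM) and above it in the 3 treated groups, while SPRY2 stays between 8.40 and 9.51 FPKM.

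Counted over the set, 6 of the 10 genes passed the filter in siPAP total RNA and 2 were higher (ETV5 and SPRED2), beside 9.55% of 13318 genes measured. None was lower, beside 7.14% of those genes. In siPAP nuclear RNA 7 passed and 2 were higher (ETV5 and SPRY4), beside 11.3% of 13636 genes, and none was lower, beside 8.18%. In LALA nuclear RNA 6 passed, ETV5 was higher, beside 11.5% of 13880 genes, and SPRY1 was lower, beside 5.03%. These counts rest on the values by which the set was chosen and are given as a description. With no filter on low values, 6, 5 and 3 of the 10 genes were at least 1.5-fold higher, beside 21.4%, 22.3% and 26.8% of all genes above 0 FPKM in both groups. The genes added this way were ETV4, ETV1, SPRY4 and DUSP6 in siPAP total RNA, ETV4, ETV1 and DUSP6 in siPAP nuclear RNA, and ETV1 and SPRY4 in LALA nuclear RNA.

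The median log2 ratio of the 10 genes was 0.63 for PAP depletion in total RNA, 0.55 for PAP depletion in nuclear RNA and 0.41 for LALA. This median takes in the genes below 1 FPKM. All genes above 0 FPKM in both groups had medians of 0.00, -0.03 and -0.03, and those that passed the 1 FPKM filter had medians of -0.06, -0.09 and -0.16. In each comparison 8 of the 10 genes had a ratio above 1, beside 49.6%, 47.9% and 48.2% of all genes above 0 FPKM in both groups. The 2 below 1 were SPRY1 and DUSP4 after PAP depletion in total RNA, SPRY2 and DUSP4 after PAP depletion in nuclear RNA, and SPRY1 and SPRY2 with LALA. Genes of low control level were themselves shifted up with LALA. Named genes of like level to ETV4, ETV1, SPRY4 and DUSP6 had medians of 0.34, 0.37, 0.40 and 0.37 there. The log2 ratios of the members themselves were 0.54, 1.61, 2.47 and 0.47. After PAP depletion these like-level medians lay between -0.01 and 0.06. With unnamed loci included they were higher in all 3 comparisons. The direction of 7 genes (ETV5, ETV4, ETV1, SPRY4, SPRED1, SPRED2 and DUSP6) was the same under every alternative pseudocount and scaling in these 3 comparisons. That of the other 3 (SPRY1, SPRY2 and DUSP4) changed with the scaling in at least 1 comparison.

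**Figure D2:**
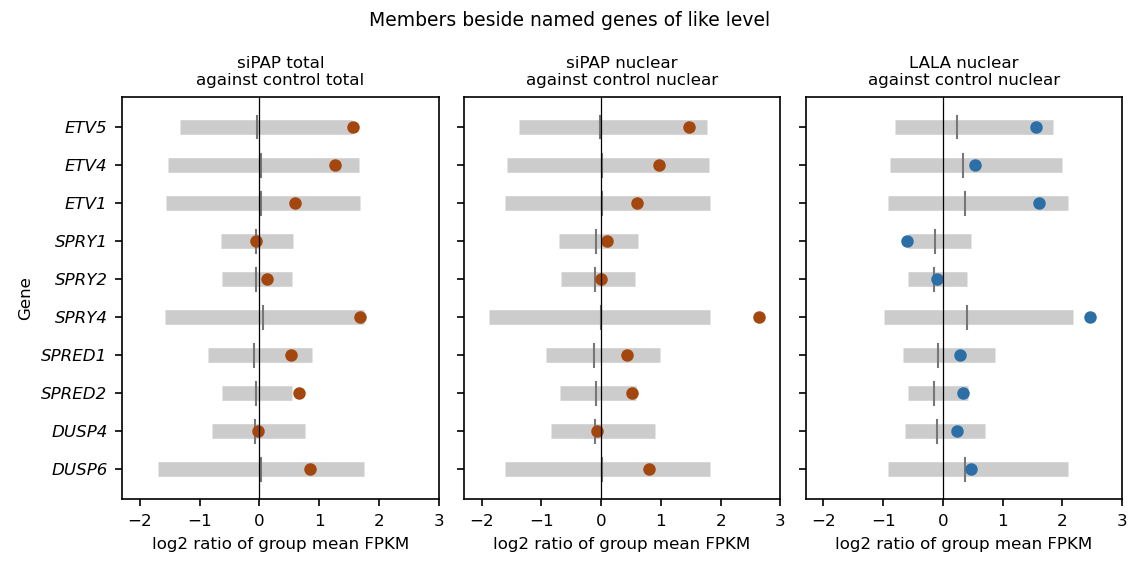
Log2 ratio of group mean FPKM (x axis) of each gene (points) in the 3 treatment comparisons. Grey bars span the 5% to 95% range of named genes whose control level lay within 2-fold of the gene's own, and the dark tick is their median. The point of SPRY4 lies beyond the bar in siPAP nuclear and LALA nuclear RNA (log2 ratios of 2.64 and 2.47), and the bars of the low genes are wider than those of SPRY2 or SPRED2. In siPAP total RNA ETV5 (1.56) and SPRED2 (0.67) also lie beyond their bars, ETV5 barely. SPRY1 (-0.61) lies just below its bar in LALA nuclear RNA.

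LALA and siPAP nuclear RNA were also compared with each other. ETV5 differed little between them (1.07-fold), and so did SPRY4 (0.885) and SPRED2 (0.890). Of 7 genes that passed the filter none was higher in LALA nuclear RNA, beside 7.45% of 13967 genes, and SPRY1 was lower, beside 5.28%. ETV1 was 2.03-fold higher in LALA but below 1 FPKM in both. ETV4 and DUSP6 were lower in LALA, with ratios of 0.738 and 0.794.

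Nuclear and total RNA gave similar levels for most of the set. In control cells 5 genes passed the filter and none was 1.5-fold apart, beside 8.57% of 13001 genes higher and 1.64% lower in nuclear RNA. In siPAP cells 7 passed and none was apart, beside 4.86% and 1.40% of 13424 genes. The nuclear level of ETV5 was 0.861 of total in control and 0.806 in siPAP cells. SPRY4 was at 0.598 of total in control and 1.17 in siPAP cells, but its control nuclear value is the lowest in the whole set. DUSP6 had the highest nuclear share of the set in both, 1.36 in control and 1.31 in siPAP cells, again at a level under 0.5 FPKM.

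The other genes of the pathway were read from 10 lists with 99 gene symbols, found at 103 loci, without the 10 genes of the set. COP1, listed as an alias beside RFWD2, named no locus. Of the loci, 83 were measured in siPAP total RNA, where 5 were higher and 3 lower. In siPAP nuclear RNA 8 of 85 were higher and 4 lower, and in LALA nuclear RNA 5 of 86 were higher and 3 lower. As shares these were 6.02% higher and 3.61% lower, 9.41% and 4.71%, and 5.81% and 3.49%, each below the share of all genes measured (9.55% and 7.14%, 11.3% and 8.18%, 11.5% and 5.03%). The lists hold named genes, whereas all genes measured take in unnamed loci. Shares over named genes alone were not computed, so this contrast may partly reflect which loci were counted. The median log2 ratios of the lists together were 0.00, 0.02 and -0.13.

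Upstream, 1, 3 and 1 of the receptor genes (FGF and EGF receptors with MET and IGF1R) were lower in siPAP total, in siPAP nuclear and with LALA, and none was higher. Of the 9, 10 and 10 measured, 8, 9 and 10 had a ratio below 1, FGFRL1 being the exception in both siPAP fractions, and the median log2 ratios were -0.28, -0.47 and -0.39. Most genes lay below 1 as well. Only 42.5%, 39.9% and 31.1% of all genes measured had a ratio above 1, with medians of -0.06, -0.09 and -0.16. FGFR4 was lower in all 3 comparisons, from 2.34 to 1.39 FPKM in total RNA and from 2.93 to 1.51 FPKM in siPAP and 1.94 FPKM in LALA nuclear RNA. FGFR3 and ERBB2 were also lower in siPAP nuclear RNA, from 29.2 to 17.9 FPKM and from 9.48 to 5.28 FPKM. Of the ligands, 4 or 5 genes were measured, and NRG1, a ligand of ERBB3 and ERBB4, was higher in LALA nuclear RNA alone among the 3 comparisons (0.639 and 1.09 FPKM). Of 10 adaptors and exchange factors, CRKL was higher in siPAP nuclear RNA (log2 ratio of 0.59) and no other passed the mark. All 6 RAS GTPase-activating proteins, NF1 among them, stayed within it.

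In the cascade itself, MAPK3, which encodes ERK1, was lower in siPAP total and LALA nuclear RNA, at 19.4 and 12.6 FPKM in control and siPAP total and at 17.6 and 11.4 FPKM in control and LALA nuclear RNA. MAP2K2, which encodes the ERK kinase MEK2, was lower in LALA nuclear RNA (38.8 and 24.8 FPKM). ARAF, a RAF kinase gene, was assembled at 2 loci, and the scarcer of them was higher in siPAP nuclear RNA (0.234 and 1.10 FPKM).

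Among the other phosphatases, DUSP8 was higher in both siPAP fractions (log2 ratios of 0.72 and 0.83) and DUSP5, a nuclear phosphatase of ERK, in siPAP total RNA (0.68). DUSP9, an ERK phosphatase at 6.08 to 10.8 FPKM, was lower in both (-0.63 and -0.65). None of the 8 phosphatase loci measured passed the mark in LALA nuclear RNA. Of 6 other inhibitors measured, RASSF1 was higher in siPAP nuclear and LALA nuclear RNA, with log2 ratios of 0.60 and 0.87.

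Downstream, 1 of 8, 1 of 8 and 2 of 9 other ERK-induced transcripts measured were higher and none was lower, with median log2 ratios of 0.14, 0.09 and 0.10. Beside these counts, 9.55%, 11.3% and 11.5% of all genes measured were higher. FOSL1, an AP-1 subunit, was higher in all 3 comparisons. It stood at 3.10 and 5.02 FPKM in control and siPAP total RNA and at 2.87, 4.75 and 4.56 FPKM in control, siPAP and LALA nuclear RNA. EGR1, an immediate early gene, was at 0.240 FPKM in control nuclear, 0.587 FPKM in siPAP nuclear and 1.86 FPKM in LALA nuclear RNA. In the 3 comparisons 5 of 8, 5 of 8 and 5 of 9 measured loci of the list had a ratio above 1, beside 42.5%, 39.9% and 31.1% of all genes measured. The rest of these loci lay below control without passing the mark, such as MYC (log2 ratios of -0.20, -0.18 and -0.54) and EPHA4 (-0.33, -0.25 and -0.36). Of 13 other ETS genes measured, ETS1 was higher in both siPAP fractions (log2 ratios of 0.95 and 1.00) and lay just short of the mark in LALA nuclear RNA (0.56).

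Capicua (CIC), the repressor of the ETV genes in human and mouse cells, had log2 ratios of 0.15 and 0.00 after PAP depletion in total and nuclear RNA and of -0.43 with LALA. ATXN1L, a partner of Capicua, was higher in siPAP nuclear RNA (8.72 and 13.2 FPKM). Of 2 loci named ATXN1, another partner, the one that carries an assembly number beside the gene name was higher in all 3 comparisons (1.58, 1.66 and 0.61), while the other had log2 ratios of 0.46, 0.48 and -0.05. The table does not say which of them holds the mRNA.

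**Figure D3:**
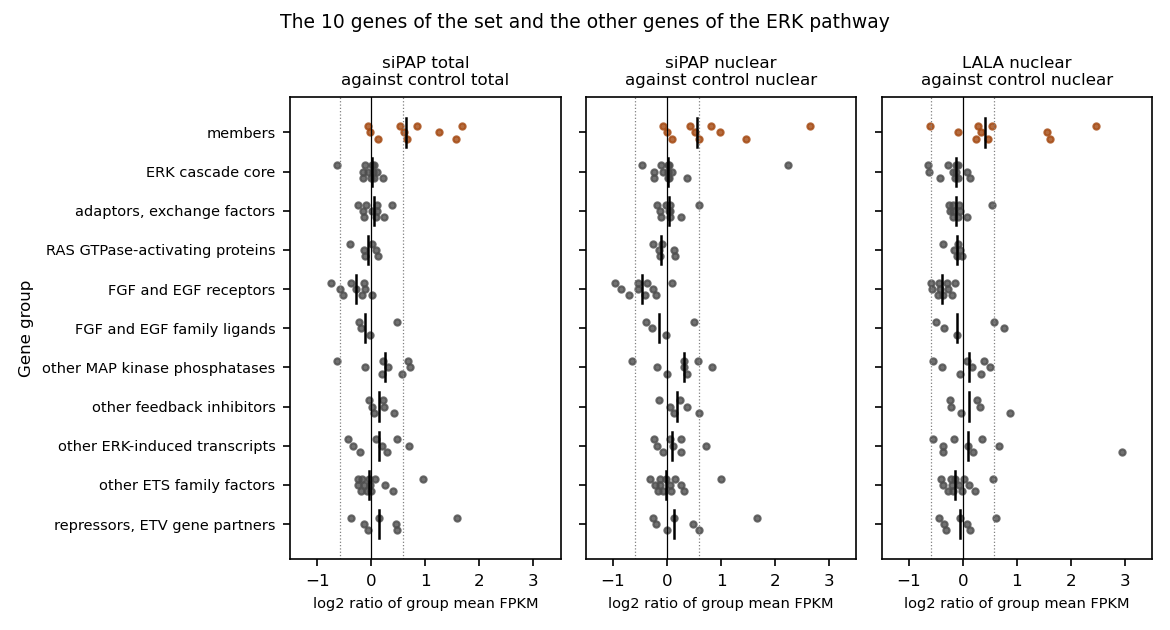
Log2 ratio of group mean FPKM (x axis) for all 10 genes of the set (top row) and, for the 10 other gene groups of the pathway, each locus with at least 1 FPKM in the higher of the 2 groups, with dotted lines at 1.5-fold and a black tick at the row's median. Most loci sit between the dotted lines, the median of the receptors lies left of 0 (-0.28, -0.47 and -0.39), and EGR1 is the far right point in LALA nuclear RNA.

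The genes whose pattern over the 5 groups was most like that of ETV5 were sought among 12652 named loci with at least 0.5 FPKM in every group. Likeness was the distance between log2 levels after each gene's own mean was removed. The nearest were WTAP (0.19), the nuclear noncoding RNA NEAT1 (0.21), the pseudogene BCRP2 (0.23), CAMTA2 (0.35) and LGALS3 (0.35). NEAT1 was at 54.7, 150 and 172 FPKM in control, siPAP and LALA nuclear RNA. For WTAP, CAMTA2 and LGALS3 the locus found was 1 of 2 with the same name and span, and the other was more abundant. In control total RNA the WTAP locus like ETV5 was at 0.679 FPKM and the other at 62.6 FPKM, the CAMTA2 loci were at 1.45 and 5.20 FPKM, and the LGALS3 loci were at 0.619 and 38.2 FPKM. What the scarcer loci hold was not tested. Of the other members in this ranking, SPRED2 came nearest at place 530, then SPRED1 at 718, DUSP4 at 2891, SPRY2 at 3082 and SPRY1 at 8605. ETV4, ETV1, SPRY4 and DUSP6 were too low in some group to be ranked.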

How the data were processed

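Polyadenylated RNA of HEK293 cells was sequenced from stranded mRNA libraries. Paired-end reads were mapped by the authors with TopHat2, transcripts were assembled on hg19 with Cufflinks, and Cuffdiff compared the groups. The deposited FPKM values are the authors' means over the 2 libraries of each group, for 30809 assembled genes and all 10 pairs of groups. The same table holds their log2 fold changes, test statistics, p-values and q-values, which were not used. The submitters' processing notes also name edgeR, whose output was not used here. Group names in the table match the sample titles.

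Log2 ratios were computed from the FPKM values without a pseudocount, in Python 3.11.15 with pandas 2.3.3, and the counting of genes was tested on simulated data. Start positions were written 1-based. Exon counts come from GENCODE lifted to GRCh37, promoters from RefSeq. No statistical test was made, because single libraries are not in the table, and depth is unknown. The members, the gene lists and the rules were chosen with earlier results of these data known. Named were all members, the targeted genes, up to 3 genes of each list past 1.5-fold (largest change first), the 5 genes most like ETV5, and loci within 5 kb of a member. CIC, MYC, EPHA4, FGFRL1, DUSP16 and EPHA2 were named after their values were seen.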

Additional observations from a re-analysis of the deposited data

How the results depend on the processing

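No paired analysis was possible because the table holds group means only, and for the same reason no replicate could be left out. A fold of at least 2 left 1 gene (ETV5) in siPAP total RNA, 1 (ETV5) in LALA nuclear RNA and 0 in LALA against siPAP nuclear RNA. With no filter on low values, the genes past 1.5-fold numbered 6 and 5 after PAP depletion in total and nuclear RNA, 4 with LALA, 2 in LALA against siPAP nuclear RNA and 1 in control nuclear against total RNA. At 5 FPKM or more they numbered 1, 0 and 1 in the 3 treatment comparisons, and ETV5 was not among them. In LALA nuclear RNA the count was 1 with a pseudocount of 1 FPKM and 1 when centred on the median, since SPRY1 dropped out in both. Rescaling all groups to the same sum without the 10 highest genes multiplied them by 0.857 to 1.09. It left 1 gene in siPAP nuclear RNA, because SPRY4 fell under 1 FPKM, and 1 (ETV5, lower) in siPAP nuclear against total RNA, and put DUSP4 (higher) in place of SPRY1 in LALA against siPAP nuclear RNA. Over all genes it moved the shares higher and lower to 15.4% and 3.11% for PAP depletion in total RNA, 6.77% and 30.5% for PAP depletion in nuclear RNA, 20.2% and 1.43% in LALA against siPAP nuclear, 17.8% and 0.742% in control nuclear against total, and 1.12% and 17.1% in siPAP nuclear against total RNA. Of 60 single ratios, 13 shrank by over 1.5-fold with a pseudocount of 1 FPKM, all of them of ETV5, ETV4, ETV1, SPRY4 or DUSP6, and none moved as far under the other settings. The sign of 17 of the 60 changed under some setting. Levels near or under 1 FPKM limit what these means can show, and the spread between libraries is unknown.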

Other observations

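In the pathway lists 4 genes (ARAF, DUSP16, EPHA2 and ATXN1) were each assembled at 2 loci with the same name and span, 8 loci in all. The scarcer ARAF locus was at 0.235 and 0.957 FPKM in control and siPAP total RNA and at 0.234, 1.10 and 0.736 FPKM in nuclear RNA of control, siPAP and LALA cells. The abundant one was at 27.7 and 32.3 FPKM in total RNA and at 22.8, 29.4 and 24.9 FPKM in nuclear RNA of the same cells. EPHA2, an ephrin receptor gene that ERK induces, was at 0.148 and 0.393 FPKM in control and siPAP total RNA at its scarcer locus, a ratio of 2.65, and at 10.5 and 14.6 FPKM at the abundant one, a ratio of 1.40. In LALA against control nuclear RNA these ratios were 2.17 and 1.14. DUSP16 differed less, with siPAP total ratios of 1.48 at the scarcer and 1.24 at the abundant locus. The ATXN1 loci had nearly equal control total levels (4.10 and 4.13 FPKM) and siPAP total ratios of 2.98 and 1.37. Whether the scarcer loci hold mRNA of the named gene was not tested.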
